A study of Mus musculus with 4 samples.

Results

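The 6 genes described here encode the enzymes that turn peptide precursors into finished hormones: Pcsk1, Pcsk2, Cpe, Pam, Furin and Qpct. They were chosen by symbol among the 32285 genes of the count matrices, and all 6 were present. A further 26 genes that act on, assist or resemble these enzymes are given as counts beside them. Levels came from single-cell RNA sequencing of pituitary glands, in which each captured molecule is counted once by its unique molecular identifier (UMI). Wild-type C57BL/6J male mice had eaten a high-fat diet (HFD) or a control diet (CTRL) for 12 weeks, with 2 libraries per diet. The label "prohormone convertases and processing enzymes" describes the function of the genes and is not a cell type. Pcsk1 and Pcsk2 are the convertases among them, and Furin belongs to the same protease family.

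A peptide hormone is made as a long precursor that enters the secretory pathway. Prohormone convertases cut it after pairs or runs of basic residues, a carboxypeptidase trims the basic residues left behind, and an amidating enzyme or a glutaminyl cyclase may then cap an end. In the pituitary the best-known substrate is pro-opiomelanocortin, the product of Pomc. Corticotropes of the anterior lobe release corticotropin from it with the Pcsk1 product, while melanotropes of the intermediate lobe also use the Pcsk2 product, which cuts corticotropin further toward melanocyte-stimulating hormone and frees beta-endorphin.

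The stretch of the Pomc reading frame that encodes corticotropin is shown because its cut sites are what separate the products of the 2 Pomc cell types. It lies within 1 exon at chr12:3960124-3960252 on the plus strand of mm10 (GENCODE vM21, transcript Pomc-201), is 129 bases long and is printed 5′ to 3′ with runs of basic codons in capitals.
Pomc: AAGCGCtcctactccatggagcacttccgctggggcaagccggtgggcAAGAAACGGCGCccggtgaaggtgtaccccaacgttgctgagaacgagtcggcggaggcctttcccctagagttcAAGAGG
The capitals at each end flank the 39 corticotropin codons, and the inner capitals mark the run at codons 15 to 18, the place where Pcsk2 protein is known to cut corticotropin. The whole reading frame held 7 runs of 2 or more basic codons.

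The promoters of the convertase pair are shown because the balance between these genes separated the Pomc cell types. RefSeq promoter windows (GRCm38.p6, 250 bases before to 50 bases after the annotated start) were on hand for 4 of the 6 members. Capitals mark matches to TGACGTCA, the full cyclic AMP response element, or to its first 5 letters, TGACG, on either strand, and the letters of the full element include a match to the shorter one on each strand. The windows lie at chr13:75089607-75089906 and chr2:143545883-143546182, both on the plus strand.
Pcsk1: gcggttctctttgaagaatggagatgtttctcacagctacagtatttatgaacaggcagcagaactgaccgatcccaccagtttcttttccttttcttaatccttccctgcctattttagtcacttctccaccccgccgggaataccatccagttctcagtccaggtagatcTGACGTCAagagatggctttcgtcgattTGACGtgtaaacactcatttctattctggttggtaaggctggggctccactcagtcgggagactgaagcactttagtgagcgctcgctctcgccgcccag
Pcsk2: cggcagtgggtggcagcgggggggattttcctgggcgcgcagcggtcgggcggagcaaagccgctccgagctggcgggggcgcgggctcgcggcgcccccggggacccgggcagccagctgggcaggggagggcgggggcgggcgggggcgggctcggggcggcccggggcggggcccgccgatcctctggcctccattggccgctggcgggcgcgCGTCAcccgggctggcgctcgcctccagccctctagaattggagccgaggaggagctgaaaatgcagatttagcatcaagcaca
The Pcsk1 window held 1 full element and 3 matches to the shorter motif, of which 2 lie within that element. The Pcsk2 window held no full element and 1 match to the shorter motif on the other strand. Among 32851 promoters of the same length, 1.79% held the full element, 20.8% held at least 1 short match and 5.01% held 2 or more. The Pcsk2 window was richer in G and C, with 76.3% against 49.3% in the Pcsk1 window, and held 36 CpG dinucleotides against 13. The median over all promoters was 52.7%, and 2.89% of promoters had at least as much G and C as that of Pcsk2.

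The deposited libraries held 10921 and 8180 barcodes with 74758237 and 97223297 UMIs in HFD 1 and HFD 2, and 7463 and 8173 barcodes with 92818116 and 101903367 UMIs in CTRL 1 and CTRL 2. HFD 1 and HFD 2 shared 3116 barcodes and CTRL 2 and HFD 1 shared 1423, whereas the other pairs shared 14 to 22. The shared barcodes in HFD 1 were mostly shallow copies: they held a median of 5.64% of the UMIs of the same barcode in HFD 2 and fell in the same cell class in 89.2% of 1338 pairs. Only the deepest copy of a shared barcode was kept, and values with every shared barcode left out are given beside the results that they change most. The 23915 kept cells had median UMI counts of 10044 and 10932 in the HFD libraries and 17943 and 12377 in the CTRL libraries. Clusters were named from marker genes with all 6 members and the 26 further genes left out of the clustering. The 10 named classes with at least 30 cells in every library were compared, and each is called by its resemblance to a cell type (melanotrope-like and so on). The melanotrope-like and corticotrope-like clusters were the Pomc-rich ones, at 154071.7 to 214877.5 and 53811.1 to 78409.3 Pomc CPM (counts per 1000000 UMIs). The p-values of diet within a class measure the spread between libraries. Those of tests that compare classes within libraries measure how the class difference varies between libraries. GEO's labels do not say how many glands entered a library, so either spread may be technical.

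Pcsk1 and Pcsk2, the endoproteases of the regulated secretory pathway, had different patterns over the pituitary classes. The values that follow are summed UMI counts per class and library in CPM, given as the mean ± SD over the 4 libraries. They describe clusters and carry no test. Pcsk1 (chr13:75089826-75134861, plus strand, mm10) averaged 893 ± 57.8 CPM in gonadotrope-like cells, the cells that make luteinizing and follicle-stimulating hormone. Thyrotrope-like cells followed at 308 ± 14.7 CPM, corticotrope-like cells at 179 ± 22.3 CPM and melanotrope-like cells at 132 ± 13.3 CPM. Lactotrope-like cells averaged 81.9 ± 18.1 CPM and somatotrope-like cells 47.0 ± 7.54 CPM. Neighbours in this order of 6 hormone classes did not overlap between libraries. With every shared barcode left out, thyrotrope-like cells ran from 104 to 310 CPM, corticotrope-like cells from 125 to 209 CPM and melanotrope-like cells from 117 to 158 CPM. Their HFD 2 values rested on 33, 197 and 27 Pcsk1 UMIs, against 1237, 1292 and 952 with 1 copy kept. Without the shared barcodes the ranges of these classes overlapped. Below them, mesenchymal-like, stem-like, endothelial-like and macrophage-like cells averaged 31.4, 12.9, 10.3 and 5.78 CPM, and their ranges overlapped one another. The mesenchymal-like mean rested on 1 library, CTRL 1 at 90.0 CPM, against 5.56 to 22.7 CPM in the others.

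Pcsk2 (chr2:143546156-143816285, plus strand, mm10) was concentrated in melanotrope-like cells. It reached 3639.8 and 2777.9 CPM in their HFD libraries and 2343.6 and 2586.5 CPM in their CTRL libraries, a mean of 2836.9 ± 564 CPM. That was 10.4 times the mean of the next class, gonadotrope-like cells, at 272 ± 99.8 CPM. Gonadotrope-like and thyrotrope-like cells (226 ± 33.3 CPM) overlapped. Lactotrope-like cells averaged 85.3 ± 50.5 CPM, with HFD 1 highest at 159 CPM. In corticotrope-like cells Pcsk2 was 36.5 and 13.8 CPM in HFD libraries and 12.6 and 20.7 CPM in CTRL libraries, a mean of 20.9 ± 11.02 CPM. This overlapped with endothelial-like (19.1 CPM), somatotrope-like (19.0 CPM) and stem-like cells (17.8 CPM). With every shared barcode left out, the corticotrope-like value of HFD 1 was 18.5 CPM and that of HFD 2 was 13.9 CPM. In the annotation, Pcsk2os1 and Pcsk2os2 lie on the other strand within Pcsk2. Pcsk2os1 was counted as a gene of its own, at a mean of 162 CPM in melanotrope-like cells, and the strand setting of the counting is not given in the sources used here.

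Cpe and Pam act after the convertases. Cpe, the carboxypeptidase that removes basic residues from the ends left by cutting (chr8:64592542-64693054, minus strand), was high in every hormone class. It averaged 635 ± 97.7 CPM in lactotrope-like cells and 617 ± 31.6 CPM in melanotrope-like cells, which overlapped. Gonadotrope-like, thyrotrope-like and corticotrope-like cells followed at 529, 513 and 480 CPM, overlapping among themselves but below every melanotrope-like library, and somatotrope-like cells at 304 CPM. Outside the hormone classes, mesenchymal-like cells averaged 294 ± 109 CPM and overlapped with somatotrope-like cells. Stem-like cells had 128 CPM, endothelial-like cells 50.01 CPM and macrophage-like cells 18.7 CPM. Pam, the amidating enzyme (chr1:97795114-98095646, minus strand), was highest in melanotrope-like cells at 496 ± 60.6 CPM, ahead of thyrotrope-like (419 CPM) and lactotrope-like cells (398 CPM), whose ranges overlapped with the class before them. Corticotrope-like cells averaged 260 ± 25.5 CPM and gonadotrope-like cells 238 ± 17.3 CPM. Mesenchymal-like cells, at 242 ± 42.8 CPM, overlapped with both. In the annotation 3 further genes overlap Pam on its own strand, and reads that these share with it would be uncertain.

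Furin and Qpct differed from each other in where they were high. Furin, the convertase of the constitutive secretory pathway (chr7:80388585-80405436, minus strand), was highest outside the hormone classes. It averaged 38.9 ± 5.42 CPM in macrophage-like, 31.2 ± 6.15 CPM in endothelial-like, 30.6 ± 1.98 CPM in stem-like and 26.5 ± 6.03 CPM in mesenchymal-like cells, with overlap between neighbours. The 6 hormone classes lay between 10.53 CPM in gonadotrope-like and 15.9 CPM in somatotrope-like cells, and none of their libraries reached the lowest mesenchymal-like library. Qpct, the glutaminyl cyclase that forms pyroglutamate at peptide starts (chr17:79051906-79090378, plus strand), averaged 261 ± 36.2 CPM in gonadotrope-like cells. It averaged 89.9 ± 26.7 CPM in lactotrope-like, 61.9 ± 14.1 CPM in stem-like and 40.8 ± 3.48 CPM in thyrotrope-like cells. Corticotrope-like cells had 18.3 ± 4.48 CPM, melanotrope-like cells 7.06 ± 2.93 CPM and somatotrope-like cells 1.74 ± 0.513 CPM. Gonadotrope-like cells did not overlap with lactotrope-like cells in Qpct, nor corticotrope-like with melanotrope-like cells, while lactotrope-like and stem-like cells did overlap.

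**Figure D1:**
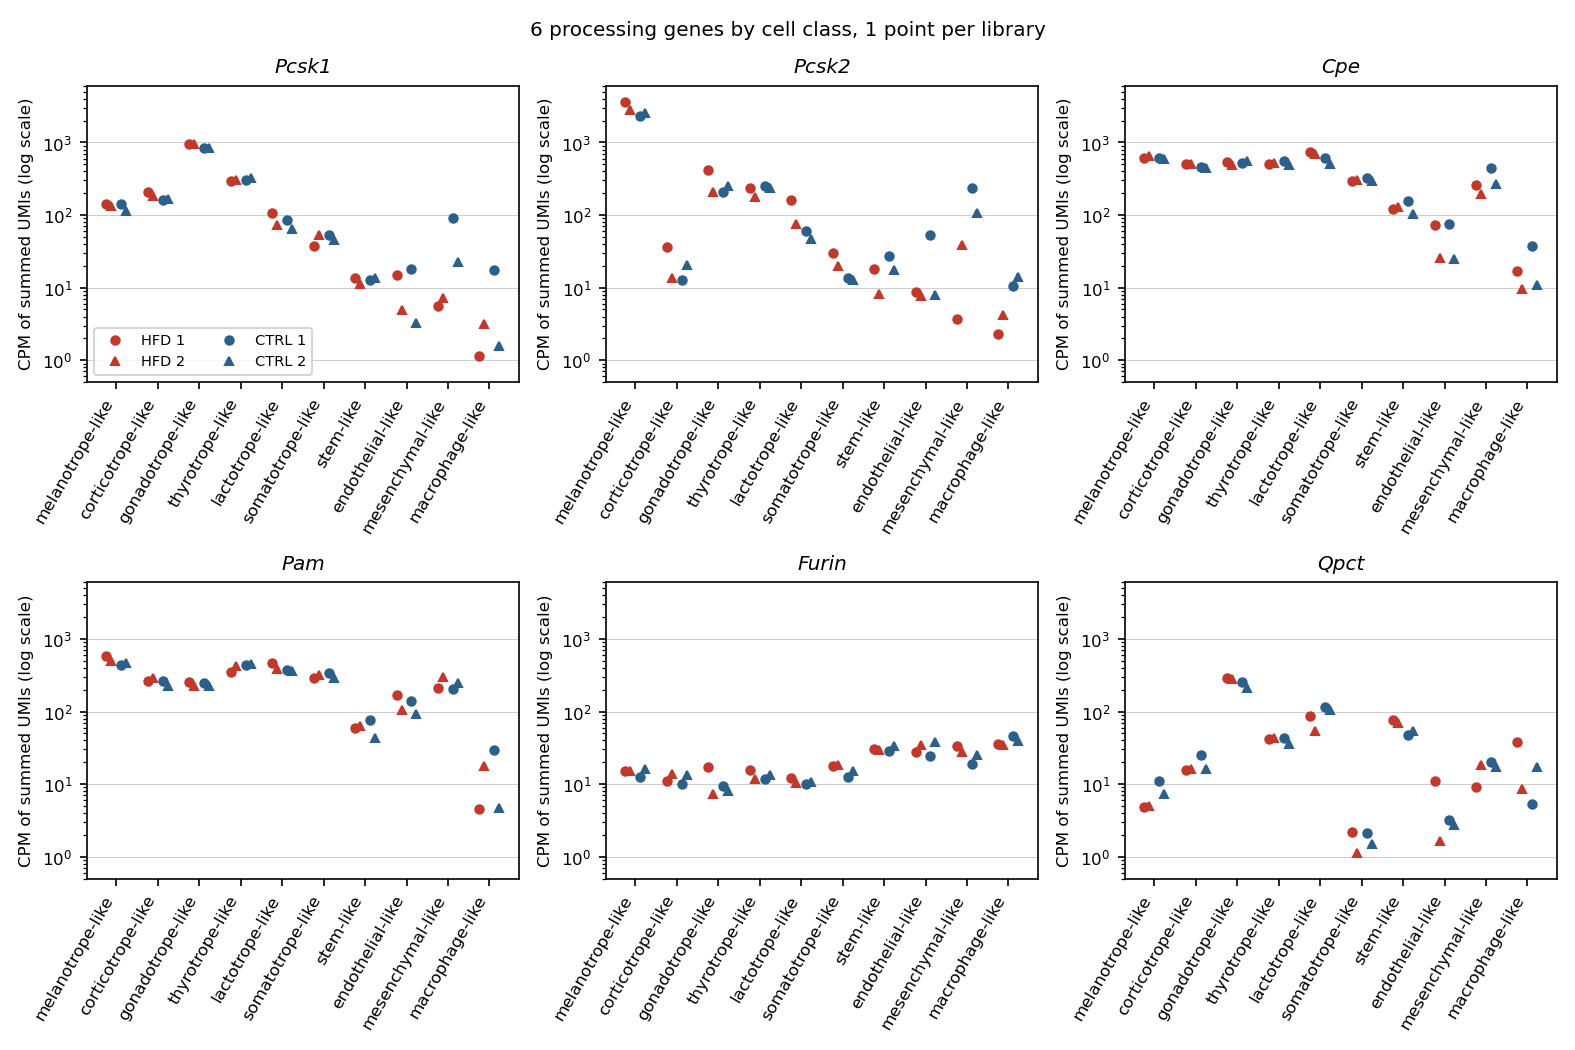
CPM of each of the 6 genes (log axis) in 10 cell classes, 1 point per library, with HFD libraries left of CTRL libraries. Pcsk2 stands at 2343.6 to 3639.8 CPM in melanotrope-like cells, Pcsk1 and Qpct are highest in gonadotrope-like cells, and Furin is highest in the 4 classes outside the hormone cells.

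Of all Pcsk2 UMIs in kept cells, melanotrope-like cells held 66.2% and 81.4% in HFD 1 and HFD 2 and 79.2% and 89.6% in CTRL 1 and CTRL 2, while making up 7.12% of kept cells on average. Of all Pcsk1 UMIs, gonadotrope-like cells held 45.0% and 57.2% in HFD libraries and 45.4% and 39.0% in CTRL libraries, from 4.06% of the cells. The 2 largest holders of Qpct UMIs were gonadotrope-like cells, with a mean of 40.5 ± 15.1%, and lactotrope-like cells, with 38.9 ± 17.2% (SD, n = 4 libraries). For Pcsk1 and for Pcsk2, the class with the largest share of the molecules was thus small by cell number. Across the 10 class means, log2(CPM + 1) of Cpe and Pam had a Pearson correlation of 0.91, Pcsk1 and Cpe of 0.84, and Pcsk1 and Furin of -0.91. Those of Pcsk2 and Qpct (0.19) and of Pam and Qpct (-0.01) were near 0. The classes share libraries, so these coefficients are descriptions.

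The convertase balance within a cell class does not depend on library scaling. Pcsk2 made up 96.2% and 95.4% of the Pcsk1 and Pcsk2 UMIs of melanotrope-like cells in HFD 1 and HFD 2, and 94.4% and 95.8% in CTRL 1 and CTRL 2. In corticotrope-like cells the share was 14.9% and 7.05% in HFD libraries and 7.27% and 11.2% in CTRL libraries. The 95% intervals (exact binomial, for counting error alone) ran from 13.0% to 16.8% in HFD 1 and from 5.76% to 8.53% in HFD 2. With every shared barcode left out, the corticotrope-like shares were 8.10% and 10.05% in HFD libraries and 7.27% and 8.73% in CTRL libraries, so that of HFD 1 was lower and the HFD libraries changed order. Every melanotrope-like share lay above every corticotrope-like share, by 81.4 and 88.3 percentage points in HFD 1 and HFD 2 and by 87.1 and 84.6 points in CTRL 1 and CTRL 2. The other hormone classes lay between them. Thyrotrope-like cells had 45.0% and 36.7% in HFD libraries and 45.2% and 42.0% in CTRL libraries. Gonadotrope-like cells had 30.7% and 18.0% in HFD libraries and 19.96% and 23.1% in CTRL libraries. Lactotrope-like cells had 59.98% and 50.4% in HFD libraries and 42.0% and 42.0% in CTRL libraries, and somatotrope-like cells had 45.1% and 27.1% in HFD libraries and 20.3% and 21.7% in CTRL libraries. In both of these classes the diets did not overlap, and the difference was not tested.

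**Figure D2:**
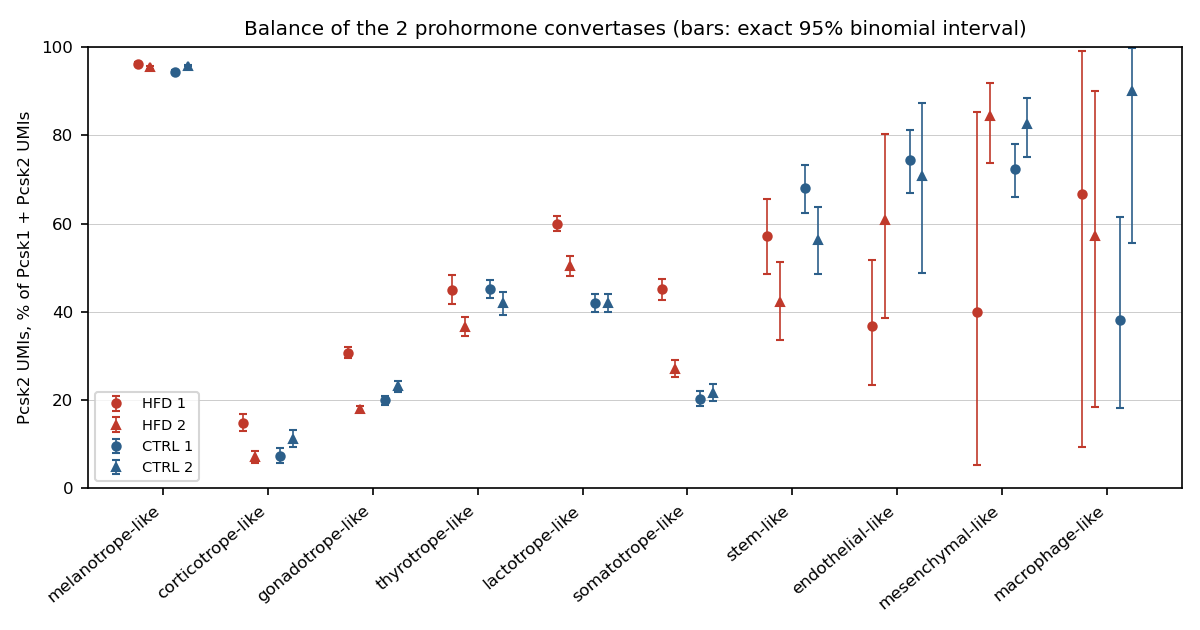
Pcsk2 as a percentage of the Pcsk1 and Pcsk2 UMIs in each of the 10 classes, 1 point per library with its exact 95% binomial interval, HFD left of CTRL. Melanotrope-like cells lie at 94.4% to 96.2% and corticotrope-like cells at 7.05% to 14.9%, where the HFD 1 point is 8.10% once shared barcodes are left out, and the 4 classes outside the hormone cells have wider intervals from fewer UMIs.

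Per cell, Pcsk2 also separated the Pomc classes. Thinning cells to 2000 UMIs each kept 191 of 196 and 324 of 331 HFD melanotrope-like cells, and 330 of 330 and 858 of 867 CTRL ones. It kept 572 of 639 and 642 of 700 HFD corticotrope-like cells, and 374 of 389 and 570 of 605 CTRL ones. Of endothelial-like cells it kept 315 of 347 and 238 of 247 in HFD, and 215 of 238 and 353 of 381 in CTRL. Among the cells kept, Pcsk2 was seen in 98.4% and 96.3% of melanotrope-like cells in HFD libraries and 95.2% and 97.4% in CTRL libraries. It was seen in 2.62% and 1.87% of corticotrope-like cells in HFD libraries and 3.74% and 3.68% in CTRL libraries. Endothelial-like cells, which are not known to make these hormones, had 2.22% and 1.68% in HFD libraries and 2.33% and 1.98% in CTRL libraries. The corticotrope-like share was above the endothelial-like one in 4 of 4 libraries, with overlapping 95% counting intervals in each, which in HFD 2 ran from 0.969% to 3.24% in corticotrope-like and from 0.460% to 4.25% in endothelial-like cells. How far RNA from other cells adds to either share was not tested. Without thinning, Pcsk2 was seen in 99.0% to 100% of melanotrope-like cells and in 7.20% to 10.8% of corticotrope-like cells. Median UMI counts were 13545.5 and 17649 in HFD and 19763 and 13718 in CTRL melanotrope-like cells, 9023 and 10071 in HFD and 12835 and 9527 in CTRL corticotrope-like cells, and 4480 and 6102 in HFD and 6595.5 and 4490 in CTRL endothelial-like cells.

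After thinning, Pcsk1 was detected in overlapping shares of both Pomc classes. It was seen in 26.2% and 24.4% of melanotrope-like cells in HFD libraries and 24.2% and 21.7% in CTRL libraries. In corticotrope-like cells it was seen in 27.3% and 22.3% in HFD libraries and 24.3% and 19.5% in CTRL libraries, whereas endothelial-like cells had 0.85% to 3.17%. Both convertases were found in the same cell in 25.7% and 22.2% of melanotrope-like cells in HFD libraries and 23.0% and 21.3% in CTRL libraries. In corticotrope-like cells this was 0.87% and 0.47% in HFD libraries and 0.53% and 0.53% in CTRL libraries. Nearly all thinned melanotrope-like cells with a Pcsk1 UMI therefore also had a Pcsk2 UMI. Qpct was seen in 42.8% and 43.8% of gonadotrope-like cells in HFD libraries and 34.8% and 34.7% in CTRL libraries.

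To test the members between the Pomc cell types, cells were picked by a gate that used none of them. A gated cell drew at least 1% of its UMIs from Pomc and had at least 2 UMIs of its own marker list and over 3 times as many as of the other list. Melanotropes were marked by Pax7, Oacyl, Esm1, Gulo and Megf11, and corticotropes by Crhr1, Gpc5, Tnnt1, Avpr1b and Cdh8. The gate held 1772 melanotropes and 1474 corticotropes, of which 40 and 291 had only 2 or 3 UMIs of their own list, and 93.8% and 96.1% lay in the cluster of the same name. A further 356 Pomc-rich cells carried both lists and 541 too few markers. Of 12411 genes tested, 46% differed at an adjusted p under 0.05 between gated melanotropes and corticotropes (edgeR quasi-likelihood test, library as block, Benjamini-Hochberg adjustment), 22.5% higher and 23.5% lower. Against that background, 5 of the 6 members passed, 4 higher and 1 lower. Their median log2 difference was 0.50, against -0.01 over all genes tested. With library totals in place of TMM (trimmed mean of M-values) scaling, 1800 genes were higher and 4763 lower, in place of 2790 and 2921, and the median of all genes was -0.20.

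Pcsk2 was the member that differed most. It stood at 3312.2 and 2659.3 CPM in gated melanotropes of HFD libraries and 2164.1 and 2562.7 CPM of CTRL libraries, against 21.0 and 19.6 CPM in gated corticotropes of HFD libraries and 22.8 and 19.3 CPM of CTRL libraries. Each melanotrope value was 95.02 to 158 times the corticotrope value of the same library. The log2 difference was 7.19 (SE 0.11, adjusted p = 9.11e-13) and ranged from 7.002 to 7.31 over the alternatives tried.

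Pcsk1 leaned the other way without passing. It had 147 and 136 CPM in gated melanotropes of HFD libraries and 141 and 117 CPM of CTRL libraries, against 203 and 172 CPM in gated corticotropes of HFD libraries and 148 and 163 CPM of CTRL libraries. It was lower in melanotropes in 4 of 4 libraries, but the log2 difference of -0.15 (SE 0.09) had an adjusted p of 0.186. It passed at -0.34 with library totals in place of TMM (adjusted p = 0.00287), at -0.27 with clusters in place of the gate (adjusted p = 0.0120) and at -0.27 without CTRL 1 (adjusted p = 0.0187). Pomc itself took 156573 to 211458 CPM in gated melanotropes and 50787 to 69455 CPM in gated corticotropes, so the share left for all other genes was smaller in melanotropes.

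The trimming and amidating enzymes were higher in gated melanotropes. Pam had 551 and 485 CPM in melanotropes of HFD libraries and 423 and 457 CPM of CTRL libraries, against 256 and 280 CPM in corticotropes of HFD libraries and 268 and 231 CPM of CTRL libraries. The groups did not overlap, and the log2 difference was 1.07 (SE 0.07, adjusted p = 1.07e-07). Cpe had 605 and 662 CPM in melanotropes of HFD libraries and 600.1 and 584 CPM of CTRL libraries, against 488 and 491 CPM in corticotropes of HFD libraries and 458 and 443 CPM of CTRL libraries. Again the groups did not overlap, with a log2 difference of 0.57 (SE 0.06, adjusted p = 1.53e-05). Both kept their direction and their call under every alternative tried, at 0.88 to 1.26 for Pam and 0.38 to 0.61 for Cpe.

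Furin and Qpct were low in both Pomc cell types. Furin had 15.2 and 15.9 CPM in gated melanotropes of HFD libraries and 12.3 and 16.4 CPM of CTRL libraries, against 13.6 and 13.7 CPM in gated corticotropes of HFD libraries and 10.1 and 13.2 CPM of CTRL libraries. The groups overlapped. Its log2 difference of 0.43 (SE 0.13, adjusted p = 0.0162) no longer passed with library totals (0.25, adjusted p = 0.147), with DESeq2's Wald test (adjusted p = 0.119), with all shared barcodes left out (adjusted p = 0.0953) or without HFD 2 (adjusted p = 0.0538). Qpct was the member that was lower, with 4.75 and 5.14 CPM in melanotropes of HFD libraries and 13.3 and 8.33 CPM of CTRL libraries, against 23.0 and 18.4 CPM in corticotropes of HFD libraries and 24.4 and 15.2 CPM of CTRL libraries. The groups did not overlap, the log2 difference was -1.12 (SE 0.21, adjusted p = 0.000932), and it held under the alternatives tried at -1.35 to -0.93.

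**Figure D3:**
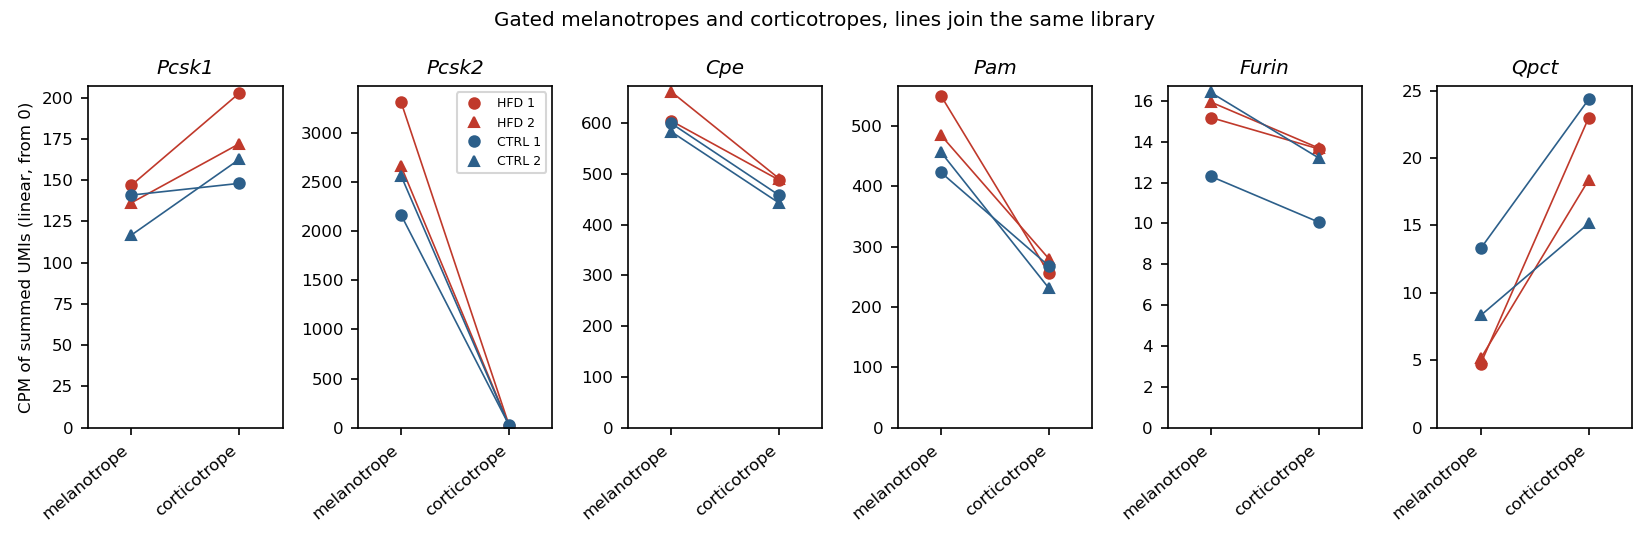
CPM of the 6 genes in gated melanotropes (left) and gated corticotropes (right), linear axes from 0, with lines joining the values of 1 library. Pcsk2 lies at 2164.1 to 3312.2 CPM in melanotropes and 19.3 to 22.8 CPM in corticotropes, Pam and Cpe are higher and Qpct lower in melanotropes without overlap, and the Furin ranges overlap.

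Of the 26 further processing genes, 22 could be tested in gated cells, 9 were higher in melanotropes, 6 were lower and 7 did not pass. Over all genes tested, 22.5% were higher and 23.5% lower. The median log2 difference of the 22 further genes was 0.20. The others had too few counts to be tested. Among the helpers of the convertases, Scg5, the chaperone that Pcsk2 protein needs to mature, was higher at a log2 difference of 0.49 (SE 0.06, adjusted p = 5.52e-05). Scg5 stood at 990 and 1126.9 CPM in melanotropes of HFD libraries and 996 and 1011.2 CPM of CTRL libraries, against 813 and 850 CPM in corticotropes of HFD libraries and 908 and 781 CPM of CTRL libraries, with no overlap. The size of the Scg5 difference was thus small beside that of Pcsk2. Pcsk1n, the precursor of an inhibitor of Pcsk1 protein, differed by 0.30 (SE 0.06, adjusted p = 0.00129), with 3446 and 3518.9 CPM in melanotropes of HFD libraries and 3044.7 and 3540.5 CPM of CTRL libraries, against 3049.9 and 3137.4 CPM in corticotropes of HFD libraries and 3061.1 and 3244.7 CPM of CTRL libraries. The Pcsk1n groups overlapped, and it no longer passed with library totals (adjusted p = 0.0660) or with all shared barcodes left out (adjusted p = 0.106). Cyb561, which passes electrons into the granule for Pam protein, differed by 0.23 (SE 0.09, adjusted p = 0.0477) and lost this call in 8 of 15 alternatives.

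The proteases of this list with the lowest adjusted p were Mme, Ctsl, Rnpep and Cpd. Mme, neprilysin, a cell-surface peptidase, had 22.1 and 21.4 CPM in melanotropes of HFD libraries and 20.3 and 22.6 CPM of CTRL libraries, against 2.78 and 0.20 CPM in corticotropes of HFD libraries and 5.30 and 0.24 CPM of CTRL libraries (log2 difference 3.64, SE 0.41, adjusted p = 1.35e-05). The corticotrope values of Mme rested on 11 and 1 UMIs in HFD libraries and 20 and 1 UMIs in CTRL libraries, and the difference was 3.19 without HFD 2, 4.61 without CTRL 1 and 5.97 with clusters in place of the gate. Rnpep, an aminopeptidase that removes basic residues from peptide starts, was higher by 1.19 (SE 0.15, adjusted p = 3.04e-05). Cpd, a carboxypeptidase of the trans-Golgi, was higher by 0.85 (SE 0.14, adjusted p = 0.000266). Ctsl, cathepsin L, was higher by 0.52 (SE 0.06, adjusted p = 1.92e-05). Tpst2 (0.78) and Ece2 (0.61) were also higher. The 6 lower genes were Prcp (-1.21), Pcsk4 (-1.09), Cpm (-0.65), Atp7a (-0.51), Ece1 (-0.50) and Mbtps1 (-0.34), of which Cpm and Atp7a lost their calls in 5 and 4 of 15 alternatives.

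**Figure D4:**
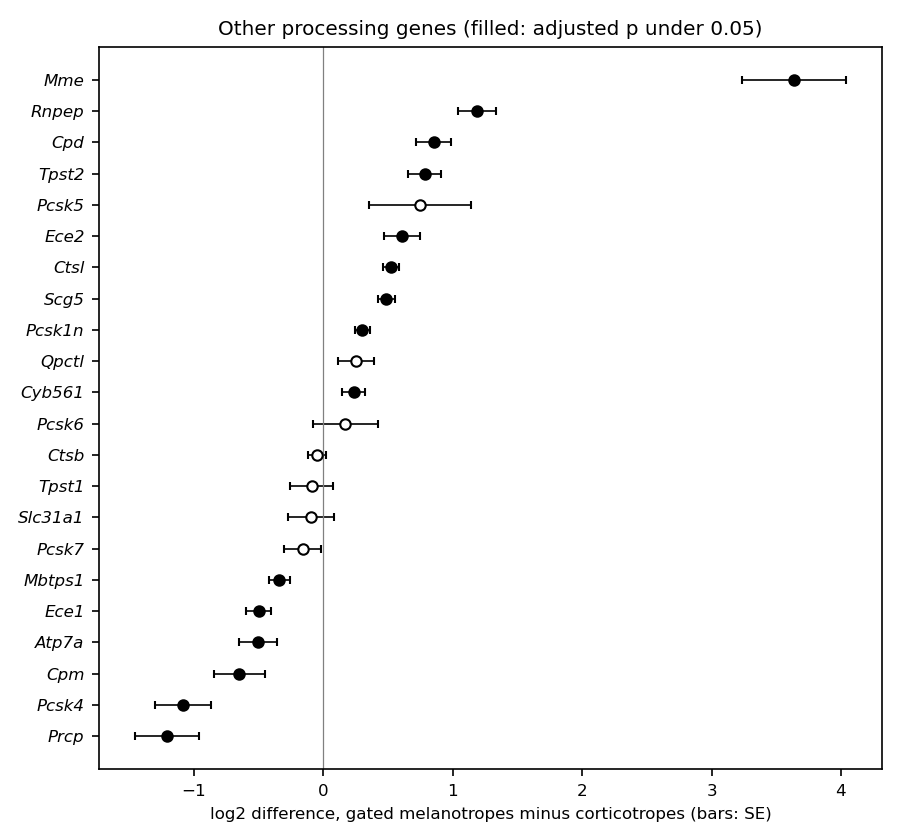
Log2 difference (gated melanotropes minus gated corticotropes) ± SE of the 22 further processing genes tested, 1 row per gene, filled where the adjusted p is under 0.05. Mme (3.64) lies farthest to the right, and Prcp (-1.21) and Pcsk4 (-1.09) farthest to the left.

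For diet, the question was whether the members differed between HFD and CTRL within a class. Of 60 pairs of a member and a class, 57 could be tested (edgeR quasi-likelihood test per class, HFD minus CTRL, Benjamini-Hochberg adjustment over all genes of the class). Low counts kept out Qpct in endothelial-like cells and both convertases in macrophage-like cells. At an adjusted p under 0.05, 2 pairs passed, 1 higher and 1 lower. Over all gene and class pairs the share that passed was 0.363%. Whether the diets overlapped is a description only, since the share of all genes without overlap is not given here. With 2 libraries against 2, full separation of the diets has an exact two-sided permutation p of 0.333. With 2 libraries per diet the tests were limited: in simulated data, 45 of 100 genes changed by 2-fold were called in the melanotrope-like comparison and 50 of 100 in the corticotrope-like one. False calls among unchanged genes numbered 9 and 14. The simulations gave every gene the same dispersion, which was not estimated from these libraries, so rates at the real spread were not tested.

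Pcsk1 was higher under HFD in gonadotrope-like cells, where it is most abundant. It had 945 and 942 CPM in HFD libraries and 839 and 848 CPM in CTRL libraries, with means of 943 ± 2.00 and 843 ± 6.104 CPM (SD, n = 2 each). The diets did not overlap, and the log2 difference was 0.30 (SE 0.06, adjusted p = 0.0439) in a class in which 1.72% of genes passed, 0.986% higher and 0.73% lower. With all shared barcodes left out, the HFD libraries held 255 and 149 Pcsk1 UMIs from 51 and 38 cells. With 1 copy kept they held 3779 and 8447 Pcsk1 UMIs from 178 and 374 cells. Without the shared barcodes Pcsk1 had 638 and 1073.3 CPM in HFD libraries. It had 839 and 800 CPM in CTRL libraries, from 207 and 57 cells, and the difference was 0.12 (adjusted p = 1.0). It also failed with library totals (0.16, adjusted p = 0.147), without HFD 1 (adjusted p = 0.183) and without HFD 2 (adjusted p = 0.144). Library totals turned the 123 higher and 91 lower genes of this class into 86 and 704 and moved the median of all genes to -0.14.

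Some markers of other cell types, but not all, differed between diets in the same gonadotrope-like cells. Pomc, which these cells are not known to make, had 509 and 533 CPM in HFD libraries and 1335.2 and 1481.7 CPM in CTRL libraries (log2 difference -1.29, adjusted p = 0.000129). The summed lactotrope list had 834 and 1592.5 CPM in HFD libraries and 3887.7 and 4207.7 CPM in CTRL libraries, with all 5 genes detected. The somatotrope list overlapped, at 2171.9 and 7468.8 CPM in HFD and 17894.2 and 2961.0 CPM in CTRL, as did the thyrotrope and stem lists. Red blood cell markers were higher in HFD, at 44.7 and 1461.7 CPM against 34.5 and 24.2 CPM in CTRL. The part of these markers in the Pcsk1 result was not tested. Qpct was 291 and 285 CPM in HFD gonadotrope-like cells and 258 and 211 CPM in CTRL ones. The diets did not overlap, but its log2 difference of 0.44 (SE 0.09) had an adjusted p of 0.0545, and it turned to -0.17 with all shared barcodes left out.

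Qpct was lower under HFD in lactotrope-like cells, the prolactin class. It had 85.5 and 54.2 CPM in HFD libraries and 114 and 106 CPM in CTRL libraries, with means of 69.8 ± 22.2 and 110 ± 5.58 CPM (SD, n = 2 each). The diets did not overlap, and the log2 difference was -0.72 (SE 0.15, adjusted p = 0.0472) in a class in which 1.09% of genes passed, 0.451% higher and 0.64% lower. The order held within both lactotrope-like clusters, at 98.3 and 66.9 CPM in HFD and 129 and 120 CPM in CTRL in the larger, and 25.4 and 24.2 CPM in HFD and 51.2 and 48.3 CPM in CTRL in the smaller. It held with all shared barcodes left out (-0.82, adjusted p = 0.0113). It failed with DESeq2's Wald test (adjusted p = 0.379), with library totals (-0.65, adjusted p = 0.0901), without HFD 2 (adjusted p = 0.0690), without CTRL 1 (adjusted p = 0.190) and without CTRL 2 (adjusted p = 0.263). Of the 150 genes that passed in this class 62 were higher and 88 lower, and with library totals 87 were higher and 69 lower. Hemoglobin and other red blood cell markers summed to 570 and 1249 CPM in HFD and 59.8 and 823 CPM in CTRL lactotrope-like cells, and their part in the Qpct result was not tested.

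Qpct thus had opposite signs in its highest classes, and the difference between the 2 diet differences was tested after the signs were seen. Lactotrope-like minus gonadotrope-like, it was -1.19 on the log2 scale (SE 0.15, adjusted p = 0.00157), where 0.572% of genes passed. With all shared barcodes left out it was -0.48 (adjusted p = 0.962). Pcsk2 in lactotrope-like cells stood at 159 and 74.8 CPM in HFD libraries and 61.0 and 46.2 CPM in CTRL libraries, without overlap but with HFD 1 far above HFD 2. Its log2 difference was 1.05 (SE 0.24, adjusted p = 0.0699). Without HFD 1 the Pcsk2 difference was 0.47, and without HFD 2 it was 1.46, each with 1 HFD library left. It passed with all shared barcodes left out (adjusted p = 0.00187) and with library totals (adjusted p = 0.0461), and over all alternatives the adjusted p reached 0.803.

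**Figure D5:**
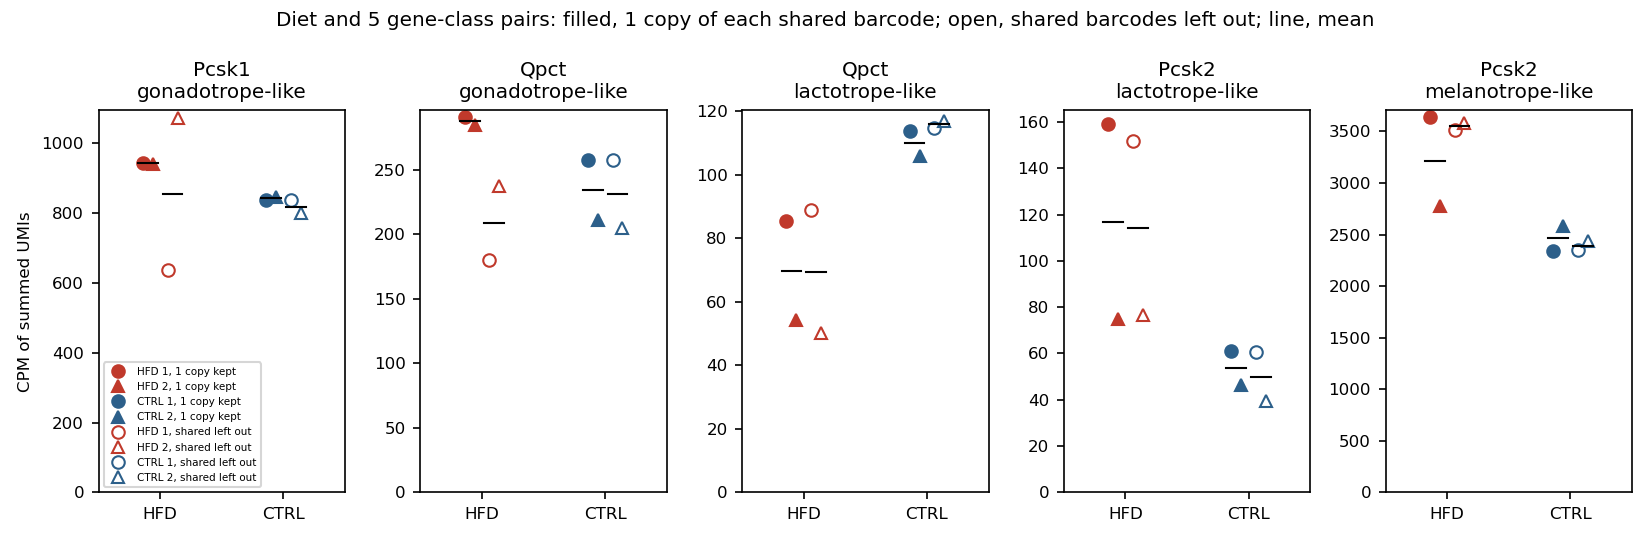
CPM per library for 5 pairs of a gene and a class, HFD left of CTRL, filled with 1 copy of each shared barcode kept and open with all shared barcodes left out, lines at the means. Pcsk1 in gonadotrope-like cells lies at 945 and 942 CPM in HFD when 1 copy is kept and spreads to 638 and 1073.3 CPM when shared barcodes are left out, while Qpct in lactotrope-like cells stays lower under HFD either way.

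In melanotrope-like cells no member passed for diet, in a class in which 0.00777% of genes did. Pcsk2 had 3639.8 and 2777.9 CPM in HFD libraries and 2343.6 and 2586.5 CPM in CTRL libraries, without overlap (log2 difference 0.44, SE 0.14, adjusted p = 0.862, unadjusted p = 0.0117). With all shared barcodes left out these were 3518.2 and 3582.6 CPM in HFD, from 170 and 31 cells, and 2348.6 and 2433.4 CPM in CTRL, from 329 and 694 cells, and Pcsk2 did not pass either (log2 difference 0.59, SE 0.38, adjusted p = 1.0). The HFD values then rested on 7647 and 612 Pcsk2 UMIs, against 10411 and 19705 with 1 copy kept. Pam differed by 0.31 (SE 0.13), with 581 and 497 CPM in HFD and 443 and 464 CPM in CTRL. Qpct differed by -0.80 (SE 0.32), with 4.89 and 4.93 CPM in HFD and 11.1 and 7.26 CPM in CTRL. Neither passed (adjusted p = 0.862 for both), although the diets did not overlap. The remaining members, Pcsk1 (0.19), Cpe (0.15) and Furin (0.15), overlapped between diets.

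In corticotrope-like cells, where 0.127% of genes passed, no member did either. Pcsk1 had 209 and 182 CPM in HFD libraries and 161 and 164 CPM in CTRL libraries, without overlap, and a log2 difference of 0.35 (SE 0.12, adjusted p = 0.372, unadjusted p = 0.0134). With all shared barcodes left out Pcsk1 overlapped between the diets, at 209 and 125 CPM in HFD and 161 and 156 CPM in CTRL. Cpe (0.23) and Pam (0.25) also did not overlap between diets. Pcsk2 (0.64), Furin (0.17) and Qpct (-0.27) did. The diet difference in melanotrope-like cells minus that in corticotrope-like cells passed for 0 of 6 members and for 0.0147% of all genes, and no member had an unadjusted p under 0.05. The smallest was 0.0677, for Qpct at -0.56 (SE 0.28). For Pcsk2 it was -0.14 (SE 0.31) and for Pcsk1 -0.14 (SE 0.16), with standard errors that allow a difference of either sign. In the simulated data of this comparison 7 of 100 genes with a 2-fold difference were called, against 69 of 100 with a 4-fold one.

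With 2 libraries against 2, the smallest p that an exact permutation test can give is 0.333, so the convertase balance could not reach significance by diet. The Pcsk2 share of Pcsk1 and Pcsk2 UMIs averaged 95.8 ± 0.59% in HFD and 95.1 ± 1.02% in CTRL melanotrope-like cells, a difference of 0.722 percentage points (SD, n = 2 each; exact two-sided permutation p = 0.667). In corticotrope-like cells it averaged 10.95 ± 5.52% in HFD and 9.24 ± 2.79% in CTRL, a difference of 1.71 points (exact two-sided permutation p = 1.0). In gated corticotropes the sign turned, with 9.38% and 10.2% in HFD and 13.3% and 10.6% in CTRL.

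Elsewhere the members did not pass for diet. The share of all genes that passed was 0.0549% in somatotrope-like, 0% in stem-like, 0.039% in endothelial-like, 0.233% in thyrotrope-like, 0.0449% in mesenchymal-like and 0% in macrophage-like cells. Of the pairs tested, the convertases in mesenchymal-like cells had the largest differences, with Pcsk1 at 5.56 and 7.20 CPM in HFD and 90.0 and 22.7 CPM in CTRL, and Pcsk2 at 3.71 and 38.6 CPM in HFD and 235 and 107 CPM in CTRL. With all shared barcodes left out, Pcsk1 was 2.17 and 7.27 CPM in HFD and 90.0 and 0 CPM in CTRL, and Pcsk2 was 0 and 8.48 CPM in HFD and 235 and 5.40 CPM in CTRL. The diets then overlapped, with CTRL 1 alone high. Pomc in these cells, with 1 copy kept, had 478 and 3966.5 CPM in HFD and 13229.2 and 4606.0 CPM in CTRL, and its part in these values was not tested. In thyrotrope-like cells Pcsk1 had 291 and 307 CPM in HFD and 308 and 327 CPM in CTRL. In somatotrope-like cells Pcsk2 had 30.3 and 19.6 CPM in HFD and 13.5 and 12.6 CPM in CTRL, without overlap. Its log2 difference was 0.77 (SE 0.18, adjusted p = 0.138). The difference was 0.47 without HFD 1 and 1.02 without HFD 2, each with 1 HFD library left. One of the 3 somatotrope-like clusters held 1401 and 1532 cells in HFD libraries and 230 and 236 in CTRL libraries. Pcsk2 was 29.9 and 20.5 CPM in HFD and 11.9 and 14.3 CPM in CTRL within it, 30.5 and 16.7 CPM in HFD and 11.9 and 12.0 CPM in CTRL in the second, and 31.5 and 21.5 CPM in HFD and 15.9 and 13.7 CPM in CTRL in the third, so no cluster overlapped between diets.

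Of the 26 further genes, 196 of 260 pairs with a class were tested for diet, 2 passed as higher and 1 as lower. Over all gene and class pairs 0.363% passed. Both higher ones were in gonadotrope-like cells, where 0.986% of all genes passed as higher. Ctsl had 1082.6 and 1003.3 CPM in HFD and 849 and 887 CPM in CTRL (log2 difference 0.41, SE 0.07, adjusted p = 0.0279), without overlap. Scg5 had 2677.8 and 2982.9 CPM in HFD and 2608.2 and 2260.4 CPM in CTRL (0.36, SE 0.08, adjusted p = 0.0484), also without overlap but by a narrow gap. In the same cells Pcsk1n (0.27, adjusted p = 0.0733) and Cyb561 (0.35, adjusted p = 0.118) did not pass. The lower one was Pcsk5, a convertase of the Furin family, in lactotrope-like cells, where 0.64% of all genes passed as lower. Pcsk5 had 1.23 and 0.84 CPM in HFD and 2.77 and 4.22 CPM in CTRL (-1.83, SE 0.35, adjusted p = 0.0312). Ctsl, Scg5 and Pcsk5 lost these calls in 3, 6 and 3 of 12 alternatives. With all shared barcodes left out, Ctsl was at 0.054 and Scg5 at 0.26 in gonadotrope-like cells (adjusted p = 1.0 for both), and Pcsk5 was at -2.13 in lactotrope-like cells (adjusted p = 0.00883).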

How the data were processed

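Pituitary cell suspensions were profiled with the 10x Genomics 3′ v3.1 assay. The authors deposited UMI counts per gene and barcode for 2 HFD and 2 CTRL libraries. Cell Ranger 6.1.2, Seurat 4.3 and mm10 are named in the submitters' processing notes, without their settings. Of shared barcodes the deepest copy was kept, a choice made after the barcodes were seen and before any comparison. Barcodes needed 500 detected genes and no more than 20% mitochondrial UMIs, which 25229 met, and 1314 were removed as doublets, scored against simulated doublets with an assumed rate of 0.8% per 1000 cells. Cells were clustered (scanpy 1.11.5, 2000 variable genes, 30 components, Leiden resolution 0.8) into 19 clusters, and 245 cells stayed unnamed. A cluster was named only where at least 3 markers were detected.

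Counts were summed per class and library, divided by the class's total UMIs to give CPM, and tested with edgeR 4.0.16 (R 4.3.3; TMM, filterByExpr, quasi-likelihood F-test, Benjamini-Hochberg over all genes of a fit). The fits were tested on simulated data first. Alternatives were DESeq2 1.42.0 (its Wald test, or its size factors in edgeR), no low-count filter, library totals, a replicate block, other cell limits, another clustering resolution, doublets kept, clusters in place of the gate, at least 4 marker UMIs in the gate, Pomc left out of the counts, all shared barcodes kept or left out, and each library left out.

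The members and lists were chosen with earlier results of these data known. The genes named were the 6 members, of the further genes Pcsk1n, Scg5 and Cyb561, any that passed for diet and the 5 with the lowest adjusted p between gated cells; Prcp, Pcsk4, Cpm, Atp7a, Ece1, Mbtps1, Tpst2 and Ece2 were named after their values were seen. A CPM of a 3′ assay is a level per transcript end, not per length, and genes were not ranked against each other by it.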

Additional observations from a re-analysis of the deposited data

Results flagged for a closer look

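Qpct differed between classes in its diet difference. HFD minus CTRL in lactotrope-like cells, less the same difference in gonadotrope-like cells, was -1.193 on the log2 scale (SE 0.15, adjusted p = 0.00157, edgeR quasi-likelihood test with library as block, 2 libraries per diet). Qpct had 85.5 and 54.2 CPM in HFD and 114 and 106 CPM in CTRL lactotrope-like cells, and 291 and 285 CPM in HFD and 258 and 211 CPM in CTRL gonadotrope-like cells, so both libraries of each diet lay on opposite sides in the 2 classes. The test was added after the signs were seen. It ranged from -1.46 to -0.48 over 11 alternatives and failed in 1 of them, with all shared barcodes left out, where gonadotrope-like cells numbered 51 and 38 in HFD libraries and 207 and 57 in CTRL libraries. Pomc in gonadotrope-like cells moved with diet as well (509 and 533 CPM in HFD, 1335.2 and 1481.7 CPM in CTRL), and its part in this difference was not tested.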

How the results depend on the processing

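Of 420 values of single genes between gated melanotropes and corticotropes under alternatives, 387 kept direction and call, 23 lost the call, 4 gained it and 6 changed sign. Of 264 diet values 222, 22, 14 and 6 did so, and of 47 values of the difference in diet difference 41, 1, 0 and 5. The number of members passing between gated cells was 4 to 6. Pairs of a member and a class passing for diet numbered 4 with DESeq2's Wald test, 11 with no low-count filter, 4 with the replicate block, 1 with library totals and 2 to 5 with a library left out. Genes with a difference in diet difference between the Pomc classes numbered 2, and 67 with no filter, 1 with shared barcodes kept, 10 with all left out, 1 with library totals and 2 to 117 with a library left out. Between lactotrope-like and gonadotrope-like cells they numbered 83, and 38 with the Wald test, 569 with no filter, 12 with all shared barcodes left out, 591 with library totals and 52 to 1253 with a library left out. Genes passing for diet in melanotrope-like cells numbered 1, and 6 with the Wald test, 90 with no filter, 2 with the replicate block, 3 with all shared barcodes left out and 2 to 128 with a library left out. In corticotrope-like cells they numbered 16, and 67, 363, 74 and 1 under the same settings, 25 with strict cell limits, 25 with shared barcodes kept and 23 to 842 with a library left out. In gonadotrope-like cells they numbered 214, and 1232 with no filter, 19 with the block, 1 with all shared barcodes left out, 790 with library totals and 36 to 1053 with a library left out. In lactotrope-like cells they numbered 150, and 590 with no filter, 230 with the block and 29 to 471 with a library left out. Fewer cells entered when shared barcodes were left out, and the cause of these changes was not tested.

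Changes of sign were as follows, on the log2 scale. Between gated cells, Pcsk6 had -0.27 with clusters, -0.033 with library totals and -0.10 to 0.35 with a library left out, Slc31a1 -0.26 to 0.030 and Tpst1 -0.16 to 0.093. For the difference in diet difference, Pcsk1 had -0.36 to 0.076 with a library left out, and Pcsk2 -0.65 to 0.46, 0.36 in gated cells and 0.24 with all shared barcodes left out. For diet with all shared barcodes left out, Furin had -0.053 in melanotrope-like and Qpct -0.17 in gonadotrope-like cells. With a library left out, Pcsk2 had -0.19 to 1.21, Furin -0.00059 to 0.38 and Qpct -0.55 to 0.087 in corticotrope-like cells, and Pcsk2 -0.027 to 1.01 in gonadotrope-like cells. For the Pcsk2 share of Pcsk1 and Pcsk2 UMIs by diet, corticotrope-like cells had a difference of -2.19 to 5.61 percentage points with a library left out and -2.17 with gated cells, and melanotrope-like cells one of 0.00325 to 1.44 points with a library left out. Deviations of same-numbered libraries had correlations of -0.166 to 0.522 over the classes. The highest were 0.522 in endothelial-like, 0.18 in stem-like, 0.179 in mesenchymal-like and 0.106 in corticotrope-like cells. In the remaining classes they were 0.056 or lower. The main fits did not pair libraries by number, and these values do not settle whether they should be paired. With the replicate block, Pcsk1 in gonadotrope-like cells had an adjusted p of 0.132 and Pcsk2 in lactotrope-like cells one of 0.00152, and Pcsk1 and Pcsk2 in mesenchymal-like cells passed at 0.0159 and 0.0230.

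Limits were the 2 libraries per diet, the shared barcodes and the depth of rare genes. Leaving out a library left 1 in its diet, assumed to vary like the other group. Levels per class moved by more than 1 SD in 29 of 240 alternatives. Clusters carry no test, and whether RNA from other cells adds to a class's level was not tested.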

Other observations

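Genes most alike to each member in pattern over the 10 class means (Pearson correlation of log2(CPM + 1), among 6116 genes with at least 50 CPM in a class) were listed as a description. Pcsk1 was most like Syp (0.97), Prelid3b (0.97) and Mrpl41 (0.96), and Pcsk2 was most like Pcsk2os1 (0.88), Sult4a1 (0.87) and Tmem179 (0.87). Pcsk2os1 lies within Pcsk2 on the other strand. Cpe was most like Ss18l2 (0.99), Pcbd1 (0.98) and Tm2d3 (0.98), and Pam was most like Gpr180 (0.98), Tmem263 (0.97) and Camk2n1 (0.96). Furin was most like Tpt1 (0.98), AW011738 (0.97) and Parp14 (0.97), and Qpct was most like Vapa (0.92), Ergic3 (0.92) and Rtraf (0.90).

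Summed over all kept cells, the diets overlapped for all members except Furin, and Furin did not pass. It had 17.6 and 16.9 CPM in HFD libraries and 13.9 and 16.0 CPM in CTRL libraries (log2 difference 0.16, SE 0.09, adjusted p = 0.576). Its lack of overlap is a description only, since the share of all genes without overlap is not given here. Full separation of the diets has an exact two-sided permutation p of 0.333. Pcsk2 had 247 and 281 CPM in HFD libraries and 251.4 and 397 CPM in CTRL libraries (-0.33, SE 0.20, adjusted p = 0.611).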
